A study of Mus musculus with 12 samples.

Results

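A group of 8 genes of sterol and fatty acid metabolism was followed in mouse embryonic fibroblasts: the desaturase genes Scd1 and Scd2, the sterol synthesis genes Hmgcs1, Sqle and Idi1, the regulators Insig1 and Srebf2, and the interferon-linked hydroxylase gene Ch25h. They were taken by symbol, as all probes that the array's annotation assigns to these 8 names. Of the 8 genes, 7 had at least 1 probe, with 13 probes in all among the 45281 of the array and the 19057 genes it names. Hmgcs1, which encodes the synthase that supplies HMG-CoA for sterol synthesis, had no annotated probe in the table used and was not analysed here. A probe was tested when its detection p was under 0.01 on at least 3 of the 12 arrays, which 11 of the 13 probes met. The other 2, Sqle probe 3 and Insig1 probe 4, were detected on 0 of 12 arrays and had group means between 4.24 and 4.53 on the log2 scale, so they give no level.

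All cells were embryonic fibroblasts of strain C57BL/6J. They were either Ulk1/2+/+ (wild type, WT) or Ulk1/2-/- (double knockout, DKO), the latter lacking the paired kinases ULK1 and ULK2 that start autophagy. Each genotype was either left untreated or exposed for 6 h to mouse interferon beta (IFNβ) at 2500 IU/ml, which gave 4 groups of 3 arrays. The labels do not say whether the 3 arrays of a group came from separate cultures or embryos, nor whether each genotype was 1 line or several, so p-values measure only the spread between these samples.

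Animal cells make cholesterol from acetyl-CoA through the mevalonate pathway, and the transcription factor SREBP-2, the product of Srebf2, turns on the genes of that pathway when sterols are low. The protein encoded by Insig1 holds the SREBP escort protein in the endoplasmic reticulum when sterols are plentiful, and Insig1 is itself an SREBP target. Ch25h encodes cholesterol 25-hydroxylase, an interferon-stimulated gene in macrophages and other cells. Its product, 25-hydroxycholesterol, binds INSIG proteins, restrains SREBP processing and interferes with the entry of many enveloped viruses. Scd1 and Scd2 encode stearoyl-CoA desaturases, which make the monounsaturated fatty acids of membranes and stored lipid and are also regulated by SREBPs.

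The 250 bases upstream of the annotated start were read for the members that differed most between the genotypes, Ch25h and Insig1, and for Srebf2, whose product acts on sterol genes. The sequences are those of RefSeq on GRCm38.p6, whose promoter table gave an entry for 5 of the 8 members (Hmgcs1, Idi1, Insig1, Srebf2 and Ch25h). Windows are chr19:34475149-34475398 on the minus strand for Ch25h, chr5:28071162-28071411 on the plus strand for Insig1 and chr15:82147019-82147268 on the plus strand for Srebf2. Capitals mark matches to the sterol or interferon motifs named in the next paragraph.
Ch25h: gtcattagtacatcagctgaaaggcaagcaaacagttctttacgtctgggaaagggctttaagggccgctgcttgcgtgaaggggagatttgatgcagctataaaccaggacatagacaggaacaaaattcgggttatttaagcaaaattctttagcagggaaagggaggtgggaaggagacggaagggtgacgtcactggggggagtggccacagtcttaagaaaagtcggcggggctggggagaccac
Insig1: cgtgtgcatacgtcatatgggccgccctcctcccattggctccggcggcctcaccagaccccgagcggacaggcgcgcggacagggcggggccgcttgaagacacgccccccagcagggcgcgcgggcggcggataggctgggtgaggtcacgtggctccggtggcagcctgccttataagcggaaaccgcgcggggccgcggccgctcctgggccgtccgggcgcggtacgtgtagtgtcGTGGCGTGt
Srebf2: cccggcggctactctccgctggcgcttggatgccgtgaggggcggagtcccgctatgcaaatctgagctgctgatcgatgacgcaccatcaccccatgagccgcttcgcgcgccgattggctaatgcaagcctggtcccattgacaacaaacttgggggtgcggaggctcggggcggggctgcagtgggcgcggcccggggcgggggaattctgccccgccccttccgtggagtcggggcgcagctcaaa

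The search covered both strands and 5 motifs. They were the sterol regulatory element core TCACNCCAC, its shorter form CACNCCAC (contained in the first), the interferon-stimulated response element core (a pair of GAAA blocks with 2 free bases between them), the gamma-activated sequence TTCNNNGAA and the CCAAT box. The Insig1 window held 1 match to CACNCCAC, on the minus strand and beginning 9 bases before the start, and 1 CCAAT box. That short sterol motif was present in 5.16% of all 27025 promoter windows of this length. The Ch25h window matched none of the 5 motifs, and the interferon-stimulated core was present in 3.04% and TTCNNNGAA in 7.18% of all windows. The Srebf2 window held 1 CCAAT box and no other match, and that of Idi1 held 2 CCAAT boxes and no other match. Of the measured and unmeasured members with a window, the sterol core TCACNCCAC, found in 1.04% of windows, was present in Hmgcs1 alone. CCAAT boxes were present in 13 of the 15 sterol synthesis enzymes with a window, against 34.5% of all windows and 36.3% of the 17492 windows of protein-coding genes. A match is a description of the letters, and its absence from these windows says nothing about binding elsewhere.

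Values are log2 normalised intensities, which are comparable between arrays for 1 probe but not between probes. Per array, 13732 to 15240 probes were detected, which is 30.3% to 33.7%. Ulk1 and Ulk2 were detected on all 6 WT arrays and on 0 of 6 DKO arrays, in keeping with the labels. All 12 fibroblast markers passed the detection filter, with a summed level of 12700 to 14800 over the 12 arrays. The brightest markers weigh most in that linear sum. Between genotypes, 2 of the 12 passed as higher and 5 as lower in DKO cells, both untreated and after IFNβ. Of all genes, 15.3% were higher and 1517 of 8898 lower untreated, and 14.8% and 15.7% after IFNβ. Pdgfra and Dcn, both fibroblast genes, were detected on 6 of 6 WT and 0 of 6 DKO arrays. Xist was detected on all DKO arrays and no WT array, and the Y-linked Eif2s3y on all WT arrays and no DKO array, so the sex of the cultures and the Ulk1/2 genotype cannot be told apart in any genotype comparison. No hepatocyte marker of 5 and only Cd14 of the 8 macrophage and leukocyte markers with a probe passed the filter. By median intensity the arrays split 6 and 6, at 86.5 to 87.9 and at 97.5 to 99.7. WT contributed 4 arrays to the lower set (2 untreated and 2 treated) and DKO contributed 2 (1 untreated and 1 treated). The labels name no batch, and values within each set are given beside the main results.

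**Figure D1:**
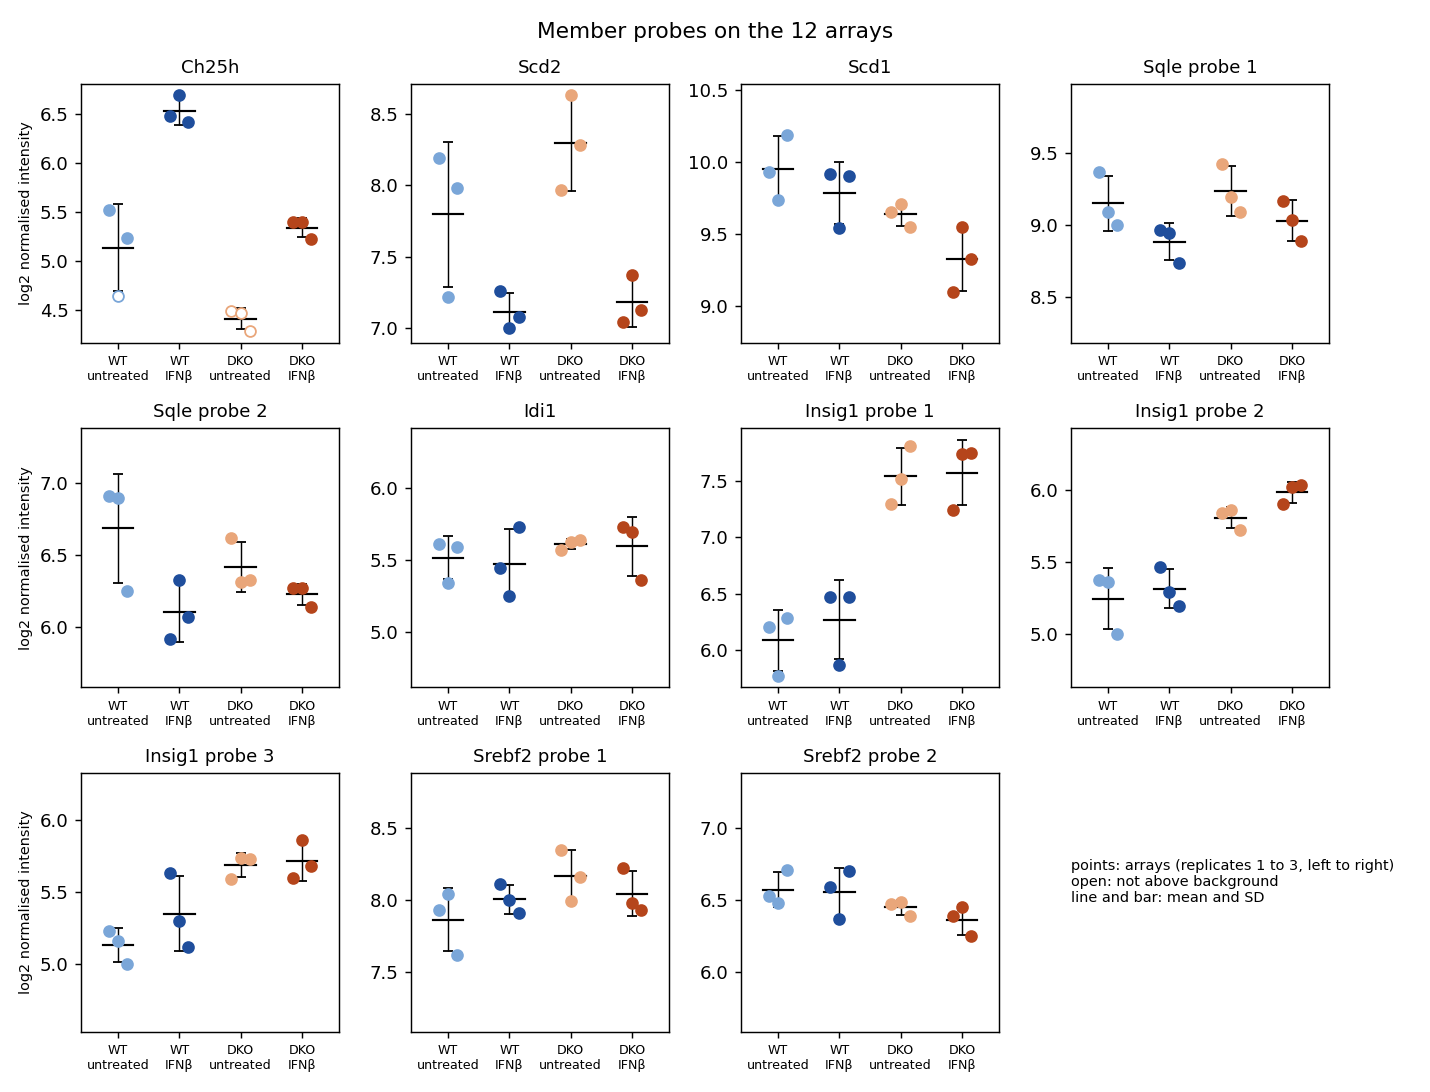
Log2 normalised intensity (vertical axes) of the 11 tested member probes on each array, by group (horizontal axes), with group mean and SD; open points were not above background. Ch25h rises with IFNβ in both genotypes and is undetected on the 3 untreated DKO arrays, Scd2 is lower with IFNβ, and the Insig1 probes are higher in DKO than in WT.

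Ch25h showed the most pronounced response to IFNβ among the members in WT cells. In untreated WT cells its log2 intensity was 5.52, 4.65 and 5.24 on replicates 1 to 3, and replicate 2 was not above background. After IFNβ the WT arrays stood at 6.48, 6.69 and 6.42, all above each untreated array. Untreated DKO cells gave 4.49, 4.47 and 4.29, none of them above background, and the IFNβ-treated DKO cells gave 5.40, 5.40 and 5.23. The treated DKO arrays thus lay close to the detected untreated WT arrays and more than 1 log2 unit below each treated WT array.

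In WT cells, Ch25h rose by 1.39 ± 0.17 log2 (SE, 95% interval 1.02 to 1.77), a 2.62-fold change, with an adjusted p of 5.9e-05 by limma with Benjamini-Hochberg adjustment over all 15856 tested probes. In DKO cells the mean went from an unmeasured level of 4.42 to 5.34 (adjusted p = 0.003 for the difference of these means). Against the detection floor of the background-corrected values, the change was at least 1.4-fold. The bound sets the brighter group's mean against, on each dim array, the higher of the lowest detected signal and the probe's own signal. Before treatment, Ch25h was lower in DKO than in WT (adjusted p = 0.0065 for the difference of the means). The bound was 1.21-fold, with a WT mean that includes the undetected replicate 2. Both bounds hold for the background-corrected values only. After treatment it was lower in DKO by 1.18 ± 0.17 log2 (95% interval of the difference -1.56 to -0.81, adjusted p = 0.00016), or 2.27-fold. The rise itself differed between the genotypes by -0.46 ± 0.25 log2 (DKO change minus WT change, 95% interval -1.0 to 0.07). That difference missed the threshold (adjusted p = 0.69) and rests on a DKO starting level that was below background. Without the background correction, and on the authors' log2 values, the Ch25h changes were smaller, at 0.60 in WT and 0.30 in DKO, and still passed. The genotype differences also depended on processing. Under alternative settings they were as small as -0.54 log2 after IFNβ and -0.23 untreated, and passed at those sizes.

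Within the lower and the higher intensity set, the Ch25h rise was 1.5 and 1.18 log2 in WT and 0.91 and 0.94 in DKO, and the treated difference between genotypes was -1.18 and -1.10. Over the 6 lower-set arrays alone, the DKO rise (adjusted p = 0.237) and the untreated difference of -0.59 (adjusted p = 0.21) did not pass, with 1 DKO array on each side. The adipocyte marker Lpl moved in the same direction as Ch25h in WT cells (4.98 to 6.48 log2), and its part in the result was not tested. Pparg, the other adipocyte marker of 9 that passed the filter, was detected on 0 of 6 WT and 4 of 6 DKO arrays. The summed level of both was 53.6 to 60.5 in untreated WT, 97.4 to 115 in treated WT, 48.0 to 57.9 in untreated DKO and 52.4 to 61.0 in treated DKO cells. Fabp4 did not pass the filter and was detected on 1 of 3 untreated DKO arrays and on 0 of 3 in each other group. The other adipocyte markers with a probe, Adipoq, Plin1, Cidec, Lep, Retn and Cebpa, were detected on 0 of 12 arrays. The macrophage markers Ptprc, Adgre1, Csf1r, Itgam, Tyrobp, Lyz2 and Cd52 were also detected on 0 of 12 arrays. Cd14, the macrophage marker that passed, was detected on all 12. It fell with IFNβ in WT cells from 6.33 to 5.87 (adjusted p = 0.027) and was lower in untreated DKO than in WT cells by 0.69 ± 0.13 log2 (adjusted p = 0.001), and its part in the results was not tested. The summed level of the list was 73.9 to 88.1 in untreated WT, 56.0 to 60.4 in treated WT, 46.1 to 53.4 in untreated DKO and 43.7 to 61.0 in treated DKO cells. In bulk RNA, fewer cells of a type and less RNA per cell cannot be told apart.

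Scd2 moved the opposite way. Untreated WT cells had log2 intensities of 8.19, 7.22 and 7.98, and treated WT cells 7.26, 7.00 and 7.08, so the untreated replicate 2 lay inside the treated range. Untreated DKO cells had 7.97, 8.63 and 8.28, and all of them exceeded the treated DKO arrays at 7.04, 7.37 and 7.13. The treated arrays of both genotypes thus shared 1 narrow range, and every untreated array except WT replicate 2 lay above it.

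In DKO cells, Scd2 fell by 1.11 ± 0.22 log2 (95% interval of the change -1.58 to -0.64, adjusted p = 0.004), a 2.16-fold reduction. In WT cells it fell by 0.69 ± 0.22 log2 (95% interval of the change -1.16 to -0.22, adjusted p = 0.048). The difference between these changes was -0.43 ± 0.31 log2 (DKO minus WT, adjusted p = 0.83), and its 95% interval of -1.09 to 0.24 leaves room for a larger fall in DKO cells and for a slightly smaller one. The genotypes did not pass the test untreated (0.50 ± 0.22 log2, DKO minus WT, adjusted p = 0.11) or after IFNβ (0.07 ± 0.22, adjusted p = 0.86). All 3 same-numbered WT pairs fell, by 0.22 to 0.93 log2. The WT call passed with the replicate number as a block within each genotype (-0.69 ± 0.13, adjusted p = 0.00318) and with the intensity set as a block (-0.69 ± 0.19, adjusted p = 0.0165). It was lost when any of WT untreated replicates 1 and 3, the 3 treated WT arrays, DKO untreated replicate 3 or any treated DKO array was left out, with changes of -0.76 to -0.49 and adjusted p of 0.0501 to 0.19. Without DKO untreated replicate 1 or WT untreated replicate 1, the untreated genotype difference passed, at 0.66 log2 (adjusted p = 0.048) and 0.69 log2 (adjusted p = 0.0382). Within the lower and the higher intensity set the Scd2 change was -0.58 and -0.90 in WT and -0.94 and -1.20 in DKO, and over the lower-set arrays alone neither passed (adjusted p = 0.19 and 0.259).

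Scd1, the related desaturase gene, is the family member best known from liver and fat. Its log2 intensity in untreated WT cells was 9.93, 9.74 and 10.19, and in treated WT cells 9.92, 9.54 and 9.90. It was 9.65, 9.71 and 9.55 in untreated DKO and 9.10, 9.55 and 9.33 in treated DKO cells. Every DKO array lay below each untreated WT array, while treated WT replicate 2 overlapped the treated DKO arrays. IFNβ changed Scd1 by -0.17 ± 0.15 log2 in WT (95% interval -0.49 to 0.15, adjusted p = 0.51) and by -0.31 ± 0.15 in DKO cells (95% interval -0.63 to 0.01, adjusted p = 0.25), and neither passed.

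After IFNβ, Scd1 was lower in DKO than in WT by 0.46 ± 0.15 log2 (adjusted p = 0.033), a 1.38-fold difference. That call was lost without treated WT replicate 1 or 3 or treated DKO replicate 1 or 3, with values of -0.46 to -0.35 and adjusted p of 0.0771 to 0.125. It was also lost with median scaling (-0.58, adjusted p = 0.0758), no detection filter (-0.46, 0.086) and only the groups compared (-0.46, 0.0548). Within the lower and the higher intensity set, the treated difference was -0.63 and -0.46 log2. The untreated difference was -0.32 ± 0.15 log2 (adjusted p = 0.13). With the intensity set as a block it was -0.39 ± 0.13 and passed (adjusted p = 0.0239), and within the lower and the higher set it was -0.18 and -0.57. Probe sequences were not used here, so whether the Scd1 and Scd2 probes also bind RNA of the other desaturases was not tested. Scd3 and Scd4 did not pass the detection filter.

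**Figure D2:**
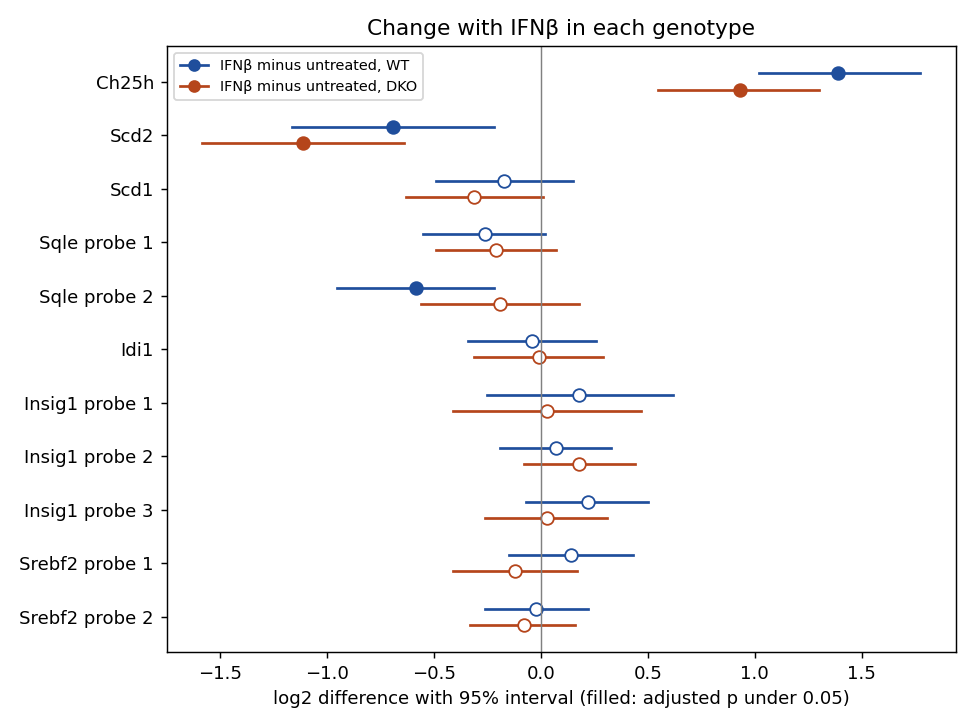
Change of each member probe with IFNβ (log2, treated minus untreated, with 95% interval) in WT and DKO cells; filled points passed at an adjusted p under 0.05. Ch25h passed upward in both genotypes, Scd2 passed downward in both, Sqle probe 2 passed in WT, and the other intervals include 0 or did not pass after adjustment.

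Sqle encodes squalene epoxidase, a flux-controlling enzyme of the late, sterol-committed part of the pathway. Its 2 detected probes changed downward with IFNβ in both genotypes, and 1 of these changes, that of probe 2 in WT cells, passed. Probe 2 had log2 intensities of 6.91, 6.90 and 6.25 in untreated WT cells and 5.92, 6.33 and 6.07 in treated WT cells, and untreated replicate 3 lay inside the treated range. In DKO cells the same probe gave 6.62, 6.31 and 6.33 untreated and 6.27, 6.27 and 6.14 treated, a narrow step with no overlap. It fell by 0.58 ± 0.17 log2 in WT (adjusted p = 0.033) and changed by -0.19 ± 0.17 in DKO (adjusted p = 0.59). The difference between the genotypes' changes was 0.39 ± 0.24 (adjusted p = 0.77).

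The brighter Sqle probe 1 changed by -0.26 ± 0.13 log2 in WT (95% interval -0.55 to 0.02, adjusted p = 0.21) and by -0.21 ± 0.13 in DKO (adjusted p = 0.41), and neither passed. Its arrays ranged from 9.00 to 9.37 in untreated WT, 8.74 to 8.97 in treated WT, 9.09 to 9.43 in untreated DKO and 8.89 to 9.17 in treated DKO cells. With the replicate number as a block within each genotype, the WT change of probe 1 was -0.26 ± 0.09 and passed (adjusted p = 0.0496). The call of probe 2 was lost without untreated WT replicate 1 or 2 or treated WT replicate 1 or 3, with changes of -0.56 to -0.47 and adjusted p of 0.0831 to 0.135. Within the higher intensity set, with 1 WT array on each side, the WT change of probe 2 was -0.18, against -0.78 within the lower set. Without untreated WT replicate 3, probe 2 was lower in untreated DKO than in WT cells by 0.49 log2 (adjusted p = 0.0212), where the full set of arrays gave -0.27 ± 0.17 (adjusted p = 0.26).

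Idi1, which encodes the isomerase that converts the basic 5-carbon isoprenoid unit to its reactive form, stayed between 5.25 and 5.73 on all arrays. Its changes with IFNβ were -0.04 ± 0.14 log2 in WT and -0.01 ± 0.14 in DKO, with 95% intervals of -0.34 to 0.26 and -0.31 to 0.29. The genotype differences were 0.10 ± 0.14 untreated and 0.12 ± 0.14 after IFNβ (adjusted p = 0.64 and 0.57). No Idi1 comparison passed, and the groups overlapped in each.

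Insig1 carried the most pronounced genotype difference among the members, and it was present with and without IFNβ. Probe 1, the brightest, read 6.20, 5.77 and 6.28 in untreated WT and 6.47, 5.86 and 6.47 in treated WT cells. In DKO cells it read 7.30, 7.52 and 7.81 untreated and 7.24, 7.74 and 7.75 treated. Every DKO array was higher than every WT array. Probe 2 ranged from 5.00 to 5.46 over the 6 WT arrays and from 5.72 to 6.03 over the 6 DKO arrays, again with no overlap. Probe 3 ranged from 5.00 to 5.63 in WT and from 5.59 to 5.86 in DKO cells, and treated WT replicate 1, at 5.63, reached into the DKO range.

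Untreated DKO cells exceeded WT cells by 1.46 ± 0.20 log2 on probe 1 (95% interval 1.03 to 1.90, adjusted p = 8.9e-05), a 2.76-fold difference. Probe 2 gave 0.56 ± 0.12 (adjusted p = 0.0029) and probe 3 gave 0.56 ± 0.13 (adjusted p = 0.0058). After IFNβ the difference was 1.31 ± 0.20 on probe 1 (adjusted p = 0.00024) and 0.67 ± 0.12 on probe 2 (adjusted p = 0.00083). Probe 3 gave 0.37 ± 0.13 (adjusted p = 0.054), which passed with the intensity set as a block (0.38 ± 0.13, adjusted p = 0.0288). It also passed without treated WT replicate 1 (0.51, adjusted p = 0.012) or treated DKO replicate 1 (0.43, adjusted p = 0.0499). Without background correction, the probe 1 differences were smaller, at 0.88 untreated and 0.81 after IFNβ, and still passed. All 3 probes thus had the same direction, and the dimmer probes gave smaller log2 differences. Within the lower and the higher intensity set, probe 1 gave 1.32 and 1.39 untreated and 1.08 and 1.27 after IFNβ. Over the lower set alone, probes 2 and 3 did not pass untreated (0.47 and 0.40, adjusted p = 0.0983 and 0.204), nor did probe 2 after IFNβ (0.52, adjusted p = 0.0668).

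IFNβ itself changed Insig1 probe 1 by 0.18 ± 0.20 log2 in WT (95% interval -0.25 to 0.62) and by 0.03 ± 0.20 in DKO cells (95% interval -0.41 to 0.47). Neither of these passed, nor did probes 2 and 3, whose changes lay between 0.03 and 0.22.

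Srebf2, which encodes the SREBP-2 precursor, had 2 detected probes that pointed in opposite directions between genotypes. Probe 1 ranged from 7.62 to 8.11 over the WT arrays and from 7.93 to 8.35 over the DKO arrays, and probe 2 from 6.37 to 6.71 and from 6.25 to 6.49. Untreated, DKO differed from WT by 0.30 ± 0.14 log2 on probe 1 (adjusted p = 0.11) and by -0.13 ± 0.11 on probe 2 (adjusted p = 0.44). With the intensity set as a block, probe 1 gave 0.39 ± 0.10 and passed (adjusted p = 0.00451). After IFNβ the differences were 0.04 ± 0.14 and -0.19 ± 0.11, and neither passed. IFNβ changed the probes by -0.12 to 0.14 log2 in the 2 genotypes, and no change passed.

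**Figure D3:**
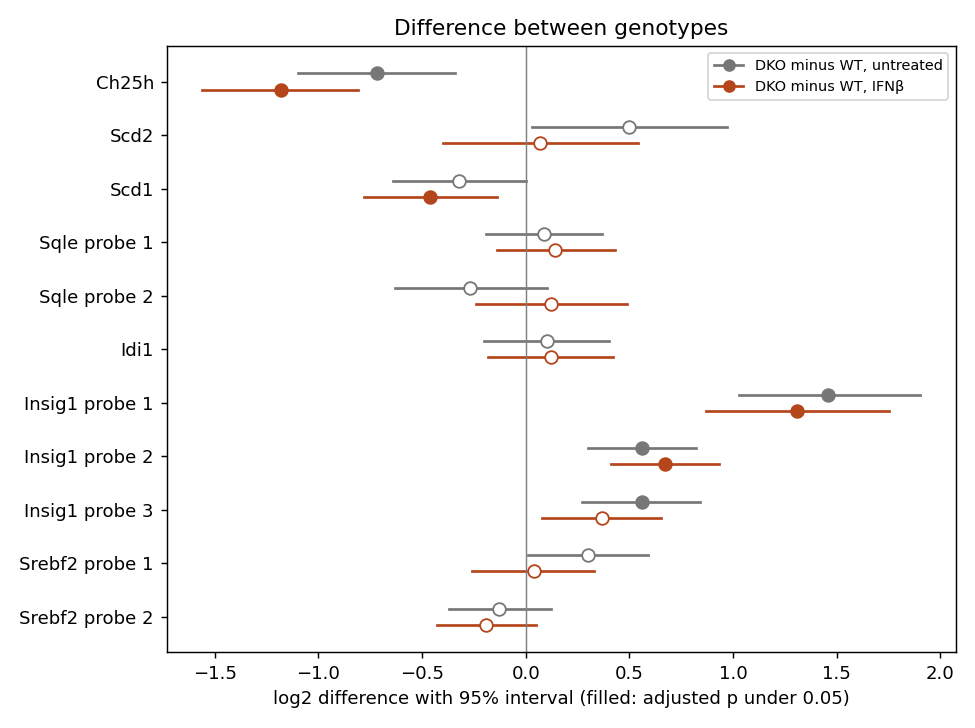
Difference of each member probe between DKO and WT cells (log2, DKO minus WT, with 95% interval), untreated and after IFNβ; filled points passed at an adjusted p under 0.05. Insig1 probe 1 lies at 1.46 and 1.31, Ch25h at -0.72 (against a group below background) and -1.18, and the remaining members lie nearer 0.

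Counted together, 3 of the 11 member probes passed for IFNβ in WT cells (Ch25h up, Scd2 and Sqle probe 2 down), against 15.6% of all tested probes. In DKO cells 2 of 11 passed (Ch25h up and Scd2 down), against 9.54%. For DKO against WT, 4 of 11 passed untreated, against 30.3% of all probes, and 4 of 11 after IFNβ, against 28.4%, so these shares lie near the background. The interaction passed for 0 of 11 member probes by limma, 0 also by every other setting tried, against 0.820% or 130 of all probes. No member probe reached an unadjusted p under 0.05 in it. Groups did not overlap for 2 and 5 of 11 member probes with IFNβ in WT and DKO cells, against 31.3% and 26.9% of all probes. They did not overlap between genotypes for 5 of 11 untreated and 3 of 11 after IFNβ, against 43.0% and 40.7%. With the replicate number as a block within genotype, calls over all probes rose from 2478 to 4188 in WT, from 1512 to 2770 in DKO and from 130 to 322 in the interaction.

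The wider sterol synthesis pathway changed little with IFNβ. Of 20 listed enzymes, 15 had a probe and 14 were tested. In WT cells 0 rose and 2 fell, against 7.82% and 9.59% of all 8898 genes tested by their brightest probe, with a median change of -0.14 log2 against -0.08 over all genes. The 2 were Mvd, mevalonate diphosphate decarboxylase (-0.49 ± 0.15 log2, adjusted p = 0.04), and Sc5d, a late-pathway desaturase (means from 5.29 to 4.64, adjusted p = 0.016). Sc5d was detected on 3 of 3 untreated but 1 of 3 treated WT arrays, and its treated mean lay below the lowest detected signal of those arrays (4.89 to 5.00). The Sc5d call was lost without untreated WT replicate 1 or treated WT replicate 1 or 3 (adjusted p of 0.0593 to 0.0725). That of Mvd was lost without any untreated WT array, treated WT replicate 2 or 3, untreated DKO replicate 3 or treated DKO replicate 2 or 3 (adjusted p of 0.0506 to 0.149). In DKO cells 0 rose and 0 fell, against 6.00% and 4.51% of all genes, with a median of -0.10 against -0.07, and Nsdhl, a sterol dehydrogenase, had the smallest p (-0.37 ± 0.12, adjusted p = 0.081).

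Between genotypes, 1 sterol enzyme was higher and 1 lower in DKO cells in both conditions, against 15.3% of all genes higher and 1517 of 8898 lower untreated, and 14.8% higher and 15.7% lower after IFNβ. Mvk, mevalonate kinase, was lower in DKO by 0.81 ± 0.11 log2 untreated (adjusted p = 5.4e-05) and by 0.66 ± 0.11 after IFNβ (adjusted p = 0.00033). Msmo1, a methylsterol oxidase, was higher by 0.34 ± 0.11 untreated (adjusted p = 0.031) and by 0.40 ± 0.11 after IFNβ (adjusted p = 0.015). Without untreated WT replicate 2 or 3 or untreated DKO replicate 1 or 2, the untreated Msmo1 call was lost (adjusted p of 0.0889 to 0.119), and the treated one was lost without treated WT replicate 3 (adjusted p = 0.0509).

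Among 19 genes of SREBP regulation and sterol uptake, 13 were tested. Npc2, which encodes the lysosomal protein that hands cholesterol to NPC1 for export, was the 1 gene that rose with IFNβ in both genotypes, and 0 fell. It rose by 1.17 ± 0.14 log2 in WT (from a mean of 9.45 to 10.62, adjusted p = 4e-05) and by 0.90 ± 0.14 in DKO cells (from 9.34 to 10.24, adjusted p = 0.00063). Over all genes, 7.82% passed upward and 9.59% downward for WT, and 6.00% and 4.51% for DKO. The brightest Vldlr probe did not pass with IFNβ. Its WT change passed with the replicate block within genotype (0.40 ± 0.12, adjusted p = 0.0256). Another Vldlr probe passed upward for WT (0.49 ± 0.15, adjusted p = 0.045), not for DKO (0.20 ± 0.15, adjusted p = 0.52). The remaining probe rose by 0.43 and 0.44 and did not pass (adjusted p = 0.06 and 0.078). Untreated DKO cells were higher than WT for 2 genes of the list, Insig1 and Stard4, a sterol carrier (0.43 ± 0.12, adjusted p = 0.014), and lower for 1, the lipoprotein receptor gene Vldlr (-0.74 ± 0.23, adjusted p = 0.028). After IFNβ, 3 were higher, Insig1, Stard4 (0.42 ± 0.12, adjusted p = 0.017) and Mbtps2, an SREBP-cleaving protease gene (0.33 ± 0.11, adjusted p = 0.046), and Vldlr was lower (-0.86 ± 0.23, adjusted p = 0.013). Of all genes, 15.3% were higher and 1517 of 8898 lower untreated, and 14.8% and 15.7% after IFNβ. Insig2, the related INSIG gene, was looked at after its values were seen. Its brightest probe did not pass untreated (0.31 ± 0.11, adjusted p = 0.052) or after IFNβ (0.07 ± 0.11, adjusted p = 0.72). Its untreated difference passed in 10 of 25 alternatives. Among them were no background correction (0.17, adjusted p = 0.0473), cyclic loess (0.35, adjusted p = 0.0315) and the intensity set as a block (0.33, adjusted p = 0.0257). It also passed without untreated WT replicate 1 or treated DKO replicate 3 (0.41 and 0.31, adjusted p = 0.0225 and 0.0467). Its other tested probe was higher in DKO by 1.23 ± 0.14 log2 untreated (means of 6.90 against 5.67, adjusted p = 1.3e-05) and by 0.79 ± 0.14 after IFNβ (6.64 against 5.85, adjusted p = 0.00067).

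Several of these calls depended on single arrays. Between genotypes, the other 2 tested Vldlr probes passed in the same direction as the brightest. The untreated call of the brightest was lost without any untreated WT array or untreated DKO replicate 2 or 3 (adjusted p of 0.0603 to 0.109). Its treated call was lost without treated WT replicate 1 or treated DKO replicate 2 or 3 (adjusted p of 0.0533 to 0.068). The Stard4 calls were lost without untreated DKO replicate 2 (adjusted p = 0.0584) and without treated WT or DKO replicate 3 (adjusted p of 0.0731 to 0.0774). The Mbtps2 call was lost in 10 of the 12 leave-one-out fits (adjusted p of 0.0517 to 0.182), and was kept without untreated DKO replicate 1 or 3.

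**Figure D4:**
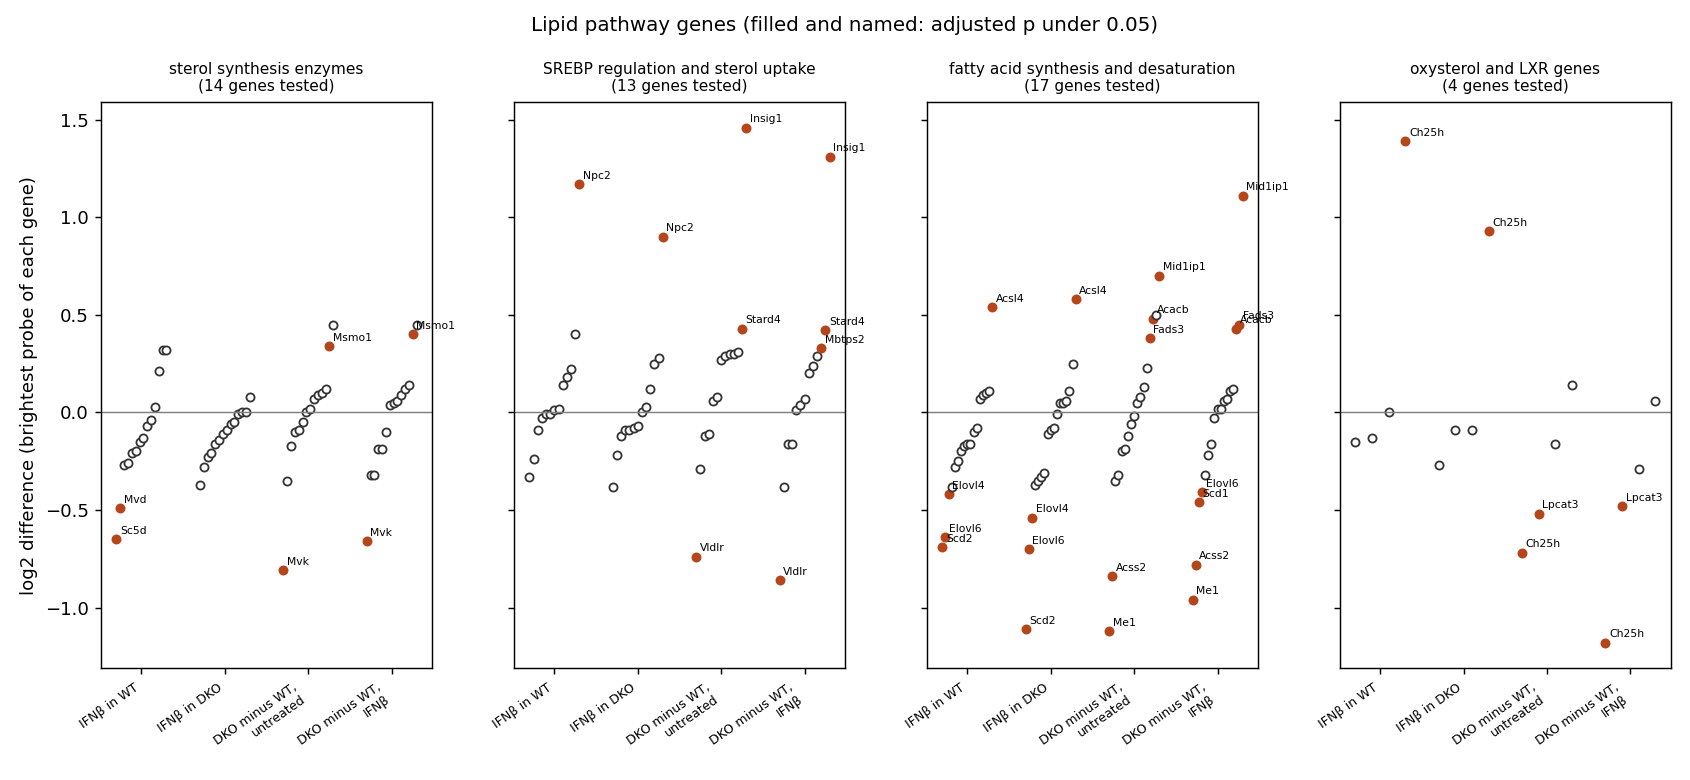
Log2 differences of the tested genes of 4 lipid lists (1 panel each, brightest probe per gene) in the 4 pairwise comparisons on the horizontal axis; filled and named points passed at an adjusted p under 0.05. Most points lie within 0.5 of 0, with Npc2 and Ch25h highest for IFNβ and Insig1 and Mid1ip1 highest for DKO against WT.

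Of 27 genes of fatty acid synthesis and desaturation, 17 were tested. The fatty acid synthase gene Fasn and the acetyl-CoA carboxylase gene Acaca did not pass the detection filter. With IFNβ, 1 rose and 3 fell in each genotype, against 7.82% and 9.59% of all genes in WT and 6.00% and 4.51% in DKO cells. Elovl6, an elongase that acts on the same chain lengths as the desaturases, fell by 0.64 ± 0.14 log2 in WT (adjusted p = 0.0053) and by 0.70 ± 0.14 in DKO cells (adjusted p = 0.004). Elovl4, an elongase of very long chains, fell by 0.42 ± 0.12 in WT (adjusted p = 0.035) and by 0.54 ± 0.12 in DKO (adjusted p = 0.012), and Scd2 was the third. Acsl4, which activates polyunsaturated fatty acids, rose by 0.54 ± 0.14 in WT (adjusted p = 0.015) and by 0.58 ± 0.14 in DKO (adjusted p = 0.013). Its other 2 tested probes had the same direction, at 0.61 and 0.57 in WT and 0.40 and 0.68 in DKO, and did not pass. The list's median change was -0.16 in WT and -0.09 in DKO cells, against -0.08 and -0.07 over all genes.

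The Elovl4 call in WT was lost without any untreated WT array or treated WT replicate 1 or 3 (adjusted p of 0.0635 to 0.13), and in DKO without untreated replicate 1 or treated replicate 3 (0.0563 to 0.0633). The Acsl4 call in WT was lost without untreated WT replicate 1 or 3 or treated WT replicate 1 (adjusted p of 0.0531 to 0.0631), and in DKO without replicate 2 of either group (0.0562 to 0.0743).

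Between genotypes, 3 fatty acid genes were higher and 2 lower in untreated DKO cells, against 15.3% of all genes higher and 1517 of 8898 lower. After IFNβ, 3 were higher and 4 lower, against 14.8% and 15.7%. Me1, the cytosolic malic enzyme that supplies NADPH for lipid synthesis, was lower in DKO by 1.12 ± 0.20 log2 untreated (adjusted p = 0.00075) and by 0.96 ± 0.20 after IFNβ (adjusted p = 0.0024). Acss2, which makes acetyl-CoA from acetate and is an SREBP target, was lower untreated (means of 5.13 against 5.97, adjusted p = 0.0085) and after IFNβ (4.80 against 5.58, adjusted p = 0.014). It was detected on all 6 WT arrays but on 2 of 3 untreated and 1 of 3 treated DKO arrays, and the treated DKO mean lay below the lowest detected signal of those arrays (4.91 to 5.04). The treated Acss2 call was lost without treated WT replicate 1 or treated DKO replicate 3 (adjusted p of 0.0687 to 0.07). Mid1ip1, whose product promotes polymerisation of acetyl-CoA carboxylase, was higher by 0.70 ± 0.10 untreated (adjusted p = 9.7e-05) and by 1.11 ± 0.10 after IFNβ (adjusted p = 1.1e-06). Fads3, a fatty acid desaturase family gene, was higher by 0.38 ± 0.10 untreated (adjusted p = 0.0084) and by 0.45 ± 0.10 after IFNβ (adjusted p = 0.0029). Acacb, an acetyl-CoA carboxylase gene, also passed upward untreated (adjusted p = 0.01) and after IFNβ (adjusted p = 0.02). It was detected on 0 of 6 WT arrays, 2 of 3 untreated DKO and 1 of 3 treated DKO arrays, with DKO means near the lowest detected signal, so no size is given. Its treated call was lost without treated WT replicate 2 or 3 or treated DKO replicate 1 or 2 (adjusted p of 0.0522 to 0.0747). Scd1 and Elovl6 (-0.41 log2, adjusted p = 0.04) were the other lower genes after IFNβ, and the Elovl6 call was lost without untreated WT replicate 2, treated WT replicate 1 or 2, untreated DKO replicate 2 or treated DKO replicate 2 or 3 (adjusted p of 0.0509 to 0.145).

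Of 14 oxysterol and liver X receptor (LXR) genes, 4 were tested. Ch25h was the 1 gene that rose with IFNβ in each genotype, against 7.82% of all genes in WT and 6.00% in DKO cells. Between genotypes, 0 were higher and 2, Ch25h and Lpcat3, lower in DKO cells in both conditions. Of all genes, 15.3% were higher and 1517 of 8898 lower untreated, and 14.8% and 15.7% after IFNβ. Lpcat3, a phospholipid remodelling enzyme and LXR target, was lower in DKO by 0.52 ± 0.14 log2 untreated (adjusted p = 0.014) and by 0.48 ± 0.14 after IFNβ (adjusted p = 0.023). Its other probe had the same direction, at -0.30 untreated and -0.24 after IFNβ, and did not pass. The untreated call was lost without untreated WT replicate 1 or untreated DKO replicate 3 (adjusted p of 0.0579 to 0.0753), and the treated one without treated WT replicate 1 or 2 or treated DKO replicate 2 or 3 (0.064 to 0.0972). Changes of Lpcat3 with IFNβ in WT (-0.13 ± 0.14) and of Hsd3b7, a bile acid synthesis enzyme, in DKO (-0.27 ± 0.25) had the smallest p among the others and did not pass. The listed enzyme genes Cyp7b1, Cyp27a1 and Cyp46a1 and the LXR targets Abca1 and Abcg1 did not pass the detection filter. In the interaction 0 genes of the 4 lists passed. Among genes other than the members, the smallest p in each list belonged to Sc5d (0.51 ± 0.23 log2, adjusted p = 0.61), Insig2 (-0.25 ± 0.16, adjusted p = 0.79), Mid1ip1 (0.42 ± 0.14, adjusted p = 0.33) and Sult2b1 (-0.09 ± 0.18, adjusted p = 0.97).

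Profiles over the 12 arrays were compared by the root mean square difference in log2 after each gene was centred on its own mean, for the members that passed a test. The nearest genes to Ch25h were Nt5c3 (0.21), Fbxw17 (0.22) and Ptx3 (0.22). Those nearest to Scd2 were Scx (0.24), Emc9 (0.26) and Nfib (0.28), and those nearest to Insig1 were H4c9 (0.18), Tgfb2 (0.18) and Ehd2 (0.19). Scd1 was nearest to Sirt3 (0.09), Ipo9 (0.10) and Wrap73 (0.11).

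**Figure D5:**
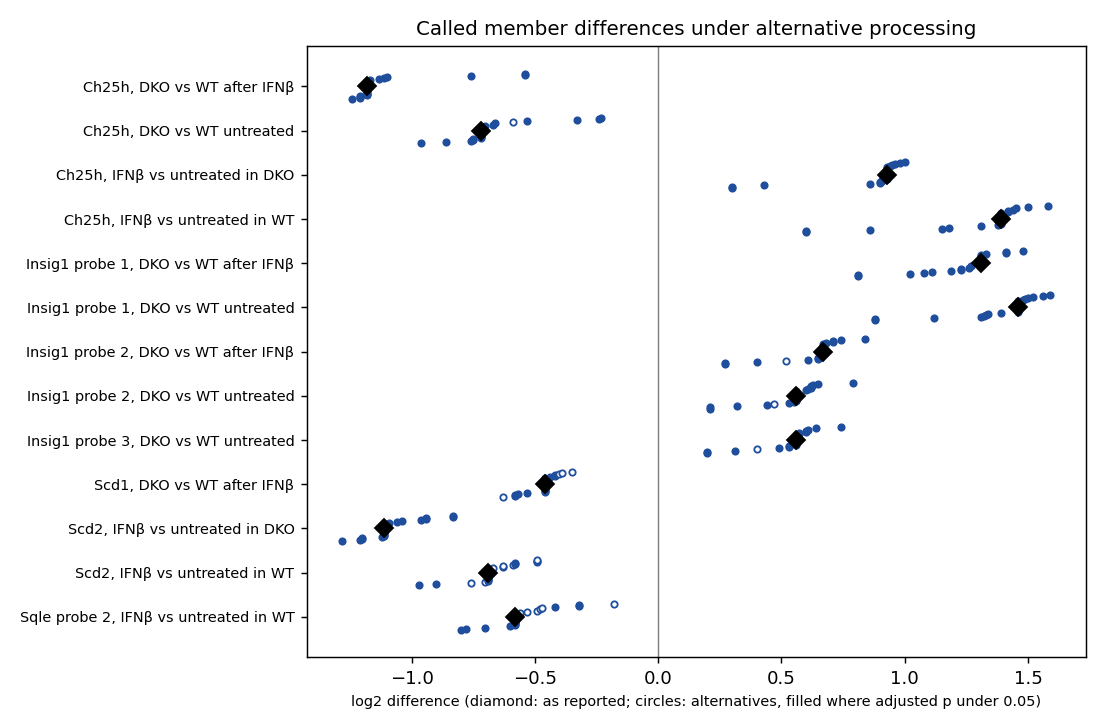
Each member difference that passed (log2, horizontal axis; diamond as reported) under every alternative setting and with each array left out (circles, filled where the adjusted p was under 0.05). All values keep their sign, Insig1 probe 1 and the treated Ch25h difference stay filled throughout, and Scd2 in WT, Sqle probe 2 and Scd1 have open circles.

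The alternative settings and left-out arrays are drawn together for the 13 member differences that passed. The Insig1 probe 1 differences, the Ch25h rise in WT and the treated Ch25h difference between genotypes passed under each of them.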

How the data were processed

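Per the labels, total RNA was amplified to biotin-labelled cRNA and hybridised to Illumina mouse bead arrays, 12 in all. The deposited intensity values are 1 linear value for each probe on an array, without background subtraction, and a detection p-value, in steps of 1 in 936, was deposited with each. The authors also deposited log2 values with the same quantiles on every array (median 6.53), used as an alternative; software and genome build are not given in the sources used here.

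Background was corrected with normexp fitted from the detection p-values (offset 16), followed by quantile normalization and log2 (limma 3.58.1, R 4.3.3; tables were read with data.table, release 1.17.8). Figures used Python 3.11.15, pandas 2.3.3 and matplotlib 3.10.9. The annotation gave 1 gene for 34885 of 45281 probes, several for 18 and none for 10378, and 15856 passed the detection filter, 13737 of them named, for 8898 genes. One limma model of 4 group means (8 residual degrees of freedom) gave 5 contrasts: the IFNβ change of WT and of DKO cells, the interaction (DKO change minus WT change), and the genotype difference in untreated and in treated cells. P-values were Benjamini-Hochberg adjusted over all 15856 probes, and 0.05 was the threshold. Listed genes count by their brightest probe. The test was checked on simulated data with noise drawn independently for each array, so the check does not cover correlation between arrays. Of 100 probes changed by 1 log2, 90 were recovered, and 13 unchanged probes were called.

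Replicate numbers were checked on residuals from the group means. Same-numbered arrays of a genotype correlated at 0.31 to 0.62 and differently numbered ones at -0.43 to 0.23, while across genotypes same-numbered arrays ran from -0.36 to 0.43. Same-numbered arrays of a genotype always shared an intensity set, so number and set are partly confounded. Within a set, differently numbered arrays of a genotype correlated at 0.08 to 0.23. Across genotypes, arrays of the same set correlated at 0.30 to 0.43, whether or not their numbers matched. Numbers were taken to pair arrays of the same genotype, not of different ones. The main model held no replicate block, so its SEs and p-values are unpaired. The block within genotype was run as an alternative. Alternatives covered background, normalization, filter, probe choice, blocks, intensity sets and leaving out each array.

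Named genes were the members, up to 4 passing genes per list and contrast with the largest difference (or the 1 with the smallest p), and 3 nearest profiles per passing member. The members and lists were chosen with earlier results of these data known.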

Additional observations from a re-analysis of the deposited data

Results flagged for a closer look

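Lpl, which encodes lipoprotein lipase and served as an adipocyte marker, differed between genotypes in its response to IFNβ, by -1.01 ± 0.17 log2 (DKO change minus WT change, limma interaction term over all probes, adjusted p = 0.0091). Its group mean went from 4.98 to 6.48 in WT cells, with 2 of 3 untreated and 3 of 3 treated arrays above background, and from 4.32 to 4.82 in DKO cells, with 0 of 6 arrays above background, so the DKO change is between levels that were not measured. No sample of a group was tested as an outlier, since each group held 3 arrays.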

How the results depend on the processing

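Having 3 arrays a group, and dim probes, limits these values, since Ch25h, Idi1 and Insig1 probes 2 and 3 lie near background, and the background correction moved the size of log2 differences of these and of Insig1 probe 1. No member or listed difference that passed changed direction under any alternative run. For IFNβ in WT cells, the count of member probes that passed was 1 with cyclic loess, 1 without the detection filter and 1 with only the groups compared. In DKO cells it was 1 when detection on all 12 arrays was required, which removes Ch25h, and 0 on the lower-intensity arrays only. For DKO against WT untreated it was 2 with 1 probe per gene and 1 on the lower-intensity arrays only, and after IFNβ 2 on those arrays. These arrays hold 1 DKO array per group. With each array left out, the counts ran from 1 to 3 in WT, 2 to 2 in DKO, 0 to 0 in the interaction, 4 to 5 untreated and 3 to 4 after IFNβ. The replicate block within genotype gave counts of 4 in WT and 2 in DKO and changed no member call other than that of Sqle probe 1 (-0.26, adjusted p = 0.0496). The block shared by all groups gave 4 untreated and 5 after IFNβ, adding Insig1 probe 3 (0.37, adjusted p = 0.0394). Scd2 in WT missed the threshold without background correction (-0.49, adjusted p = 0.0605), on the authors' values (-0.49, 0.0609), with cyclic loess (-0.63, 0.0863), median scaling (-0.70, 0.156) and no detection filter (-0.69, 0.163). The cause was not tested.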
